A study of Mus musculus with 2 samples.

Results

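The intermediate erythroid cells of the fetal liver described here are the middle tercile of a gated erythroid population, 1 of 3 groups of equal size, ranked by how much of each cell's RNA was alpha globin. The gate kept barcodes with at least 1000 detected genes, at least 2000 unique molecular identifiers (UMIs, each counting 1 captured transcript) and at most 10% mitochondrial UMIs. It asked for at least 3 UMIs of Klf1, the erythroid transcription factor. It also asked for fewer than 3 UMIs of Med12l and Prkg1 together, 30 of Mpo and Prtn3, 30 of S100a8 and S100a9, 10 of Pf4, 4 of Irf8 and Ly86, and 4 of Ms4a2, Mcpt8, Gzmb and Fcer1a. Gated cells of both libraries were ranked together by the share of their UMIs from Hba-a1 and Hba-a2. Of 14688 barcodes in the series, 9521 passed the gate, and 3174 of these formed the middle tercile, 1436 from the knockout and 1738 from the control library. The members were thus chosen by measured levels of Klf1, alpha globin and the genes of other lineages, and no test of those levels is given.

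The study asked what Brd9 does in fetal blood formation. Livers were taken at E14.5 from C57BL/6 embryos, and cells without mature lineage markers but with the c-Kit receptor were sorted and profiled by droplet sequencing of transcript 3′ ends. The knockout library came from CD45.2(+) Vav1-iCre Brd9fl/fl embryos, in which a recombinase under a promoter active in blood cells removes the floxed part of Brd9. The control library came from CD45.2(+) Brd9fl/fl embryos, and both genotypes came from mating Brd9fl/fl males with Vav1-iCre Brd9fl/fl females. Both groups therefore carry floxed Brd9, and the recombinase itself and the absence of Brd9 cannot be told apart as sources of a difference. There was 1 library per genotype and the sources used here do not give the number of embryos in each. No difference below has a replicate check, no p-value is given, and the 95% intervals cover counting error only.

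The fetal liver is the main site of red cell production at mid-gestation. Erythroid progenitors there divide under erythropoietin and the Kit ligand, then lose Kit, gain the transferrin receptor for iron uptake, and accumulate globin, heme and membrane skeleton proteins while their chromatin condenses. The alpha-globin share of a cell's RNA climbs along this path. Brd9 is a bromodomain protein of the non-canonical BAF complex, one of the ATP-dependent remodellers that move nucleosomes.

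In the middle tercile, the knockout cells had much less transcript of Hbb-bt, an adult beta globin, than control cells with a like alpha-globin share, while Hbb-bs, the other adult beta globin, stood level. Nfia, Smim5, Hemgn and Car2 were also lower, and Tmsb4x, Mef2c, Pkm and the Brd9 partner Bicral were higher.

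The middle tercile lay between 0.0291% and 0.204% of UMIs from alpha globin. Just outside the lower limit stood a cell at 0.02902%, and just inside one at 0.02905%. At the upper limit the values were 0.20382% inside and 0.20391% outside. The median cell held 0.0794% alpha globin in the knockout and 0.0763% in the control, or 32 and 33 UMIs. As a background level, granulocyte-monocyte cells (at least 30 UMIs of Mpo and Prtn3 and 0 of Klf1) had medians of 0.00545% in 527 knockout and 0.00361% in 887 control cells. Only 2 of these 527 (0.380%, exact interval 0.0460 to 1.36) and 2 of these 887 cells (0.225%, 0.0273 to 0.812) reached the lower limit of the middle tercile.

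Within the gate, the middle tercile held 30.9% of knockout cells (exact interval 29.5 to 32.2) and 35.7% of control cells (34.3 to 37.1), which is a share 0.865 times as large (0.817 to 0.916). With the sexes pooled, the knockout had more of its cells at both ends, 34.4% against 32.3% in the early tercile and 34.7% against 32.0% in the later tercile. Over the early, middle and later terciles, female cells numbered 1021, 930 and 854 in the knockout and 356, 464 and 341 in the control. Male cells numbered 557, 441 and 700 against 1197, 1229 and 1192. The excess thus lay mainly at the early end in female cells and at the later end in male cells. Because the terciles were cut on both libraries together, these shares describe the shape of the distribution and follow from the rule.

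**Figure D1:**
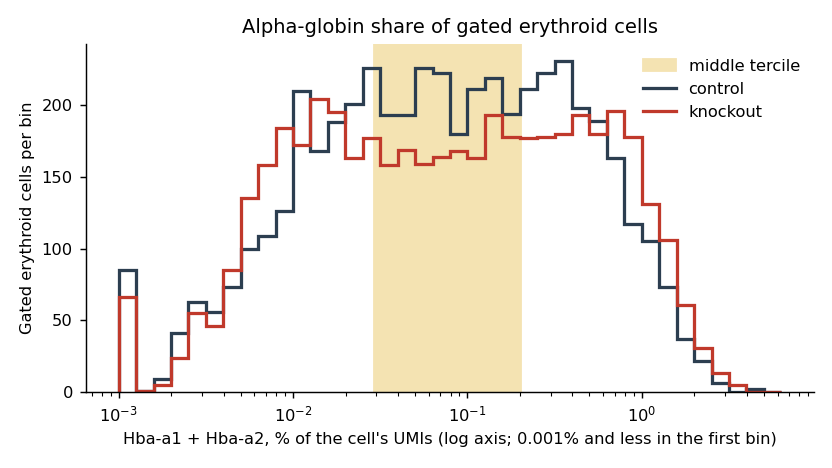
Histogram of the alpha-globin share of UMIs (x, log axis, percent; shares of 0.001% and less in the first bin) in gated erythroid cells of the knockout and control libraries (y, cells per bin). The shaded middle tercile runs from 0.0291% to 0.204% and holds 1436 knockout and 1738 control cells, and in most bins within it the knockout line lies below the control line.

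The members carried the markers of erythroid cells between progenitor and maturing stages. In control cells Kit, the receptor used in the sort, stood at 98.7, 47.3 and 12.2 UMIs per 1000000 of the cells' total (CPM, counts scaled to that total) in the early, middle and later terciles. Gata2, a progenitor transcription factor, stood at 7.63, 1.39 and 0.778 CPM. Tfrc, the transferrin receptor, was at 250, 369 and 505 CPM, and Rhd, a blood group protein, at 132, 292 and 448 CPM. Alas2, the erythroid enzyme that starts heme synthesis, was at 1.55, 5.2 and 37.1 CPM, and Slc4a1, the band 3 anion exchanger, at 1.16, 8.37 and 142 CPM. The middle tercile thus stood between the others for each of these genes, with Alas2 and Slc4a1 still far below their later levels. In knockout cells the order of the terciles was the same for each of these genes, with Kit at 87.2, 49.3 and 15.3 CPM and Slc4a1 at 1.05, 4.09 and 97.1 CPM. Not every gene followed through the terciles had such an order, though Cdk6 and Myc did in both libraries. Runx1 in the knockout (180, 186 and 170 CPM) and the scarce Cd34 in both libraries were highest in the middle tercile. Muc13 and Erg in the control and Hoxa9 in the knockout, each below 1 CPM there, were lowest in it.

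Markers of other lineages were scarce in the middle tercile, and none of the markers on the 10 lists reached 20 CPM in either library. Their summed level was 12.5 CPM in the knockout and 22.9 in the control for the 5 granulocyte-monocyte genes, and 6.25 and 10.3 for the 5 neutrophil genes. Summed over their lists, megakaryocyte genes gave 8.98 and 6.55 CPM, stem cell genes 3.98 and 2.57, hepatocyte genes 3.88 and 3.26, and endothelial genes 1.53 and 1.14. Lymphoid genes gave 1.26 and 1.31, mast and basophil genes 1.17 and 1.02, monocyte and dendritic genes 1.09 and 1.52, and macrophage genes 0.591 and 0.724. Ppbp and Fcer1a had 0 UMIs in both libraries, Gzmb, Dntt, Vcam1 and Cdh5 in the knockout, and Prss34 and Procr in the control. Several of these lists include genes that the gate limits.

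The middle tercile held 62574429 UMIs of knockout cells and 80127236 of control cells, with a median of 40706 and 43077 UMIs and 6177 and 6222 genes per cell. The median mitochondrial share was 2.49% in the knockout and 3.01% in the control. Xist and Y-linked UMIs marked 930 knockout cells as female and 441 as male, against 464 and 1229 in the control, so 64.8% and 26.7% of the members were female. Cells with UMIs of both sexes numbered 49 and 40, and Scrublet marked 26 and 34 cells as doublets. The libraries shared 16 barcodes over all cells and 0 in the middle tercile. Ratios are therefore also given within female and within male cells. Female and male cells of a library come from different embryos, so sex and embryo cannot be told apart in these ratios.

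Brd9 (ENSMUSG00000057649, chromosome 13, 73937811 to 73960895 on the plus strand of mm10, the build of all coordinates here) was lower in the knockout, the direction the labels give. It stood at 6.82 CPM (6.19 to 7.50, 427 UMIs) in knockout and 26.9 CPM (25.7 to 28.0, 2152 UMIs) in control members, a 3.94-fold lower level (3.55 to 4.38). The log2 ratio, knockout over control, was -1.98, with -1.84 in female and -2.30 in male cells. With each cell thinned to 28217 UMIs, 16.8% of 1341 knockout and 52.8% of 1674 control cells gave at least 1 UMI of Brd9; 95 and 64 cells of lower depth were not used. Without thinning the shares were 23.1% and 68.2%. Reads from the 3′ end need not cover the deleted exons, and these UMIs do not tell intact from shortened transcript.

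Across the middle tercile, 6054 genes had at least 20 CPM in either library. The log2 ratio was beyond 0.3, a 1.23-fold difference, for 222 of them (3.67%). The knockout was higher for 133 (2.2%) and lower for 89 (1.47%). The median over all 6054 genes was 0.03, and 90% of genes lay between the 5th percentile of -0.16 and the 95th of 0.21. With ratios centred on their median, 91 genes were higher and 124 lower, so the balance between directions depends on the scaling. It also depends on the sexes: with sexes weighted to the control mix, 106 were higher and 133 lower. Within female cells 210 genes (3.47%) were beyond 0.3, and within male cells 294 (4.86%), of which 123 were higher and 171 lower. Of the 133 higher genes 68 were beyond 0.3 in both sexes, and of the 89 lower genes 65 were. With each cell thinned to equal depth 122 genes were higher and 98 lower, and in cells with at most 5% mitochondrial UMIs 132 and 89.

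Female and male cells of 1 library differed for fewer genes. Between control female and control male members 28 genes (0.463%) were beyond 0.3, and between knockout female and male members 64 genes (1.06%). On autosomes alone the control sexes gave 15 such genes and the genotypes 201. The autosomal count for the knockout sexes and the number of autosomal genes tested are not given here. Female and male cells of a library share that library, so their counts leave out any difference between libraries. The counts between sexes therefore cannot gauge how far the genotype counts exceed such differences. Of the higher genes 16 lay on the X chromosome, and of the lower genes 1 lay on X and 3 on Y. How many tested genes lie on X and Y is not given here, so these counts have no share beside them. The libraries also differed in sex mix, with 64.8% of knockout and 26.7% of control members female, and its part in these counts was not tested.

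The same comparison in the early tercile gave 183 of 6048 genes beyond 0.3 (3.03%), and in the later tercile 222 of 5876 (3.78%). Of the 133 genes higher in the middle tercile, 131 were above 0 in the early and later terciles too, and all 89 lower genes were below 0 in them. Beyond 0.3 in each of the 3 terciles were 46 of the higher and 53 of the lower genes. The terciles come from the same libraries and are not replicates.

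Hbb-bt (ENSMUSG00000073940, chromosome 7, 103812524 to 103813996, minus strand) had the lowest ratio of the genes named by rule. It stood at 112 CPM (109 to 114, 6979 UMIs) in knockout and 457 CPM (452 to 462, 36616 UMIs) in control members, 4.10-fold lower (3.99 to 4.20), with a log2 ratio of -2.03. Hbb-bs (ENSMUSG00000052305, chromosome 7, 103826534 to 103828096, minus strand) was at 289 CPM (285 to 293) and 288 CPM (285 to 292), a log2 ratio of 0.00 (-0.02 to 0.03). The alpha globins, which the ranking used, gave 0.04 for Hba-a1 and 0.03 for Hba-a2.

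Hbb-bt made up 27.8% of adult beta-globin UMIs in knockout members (exact interval 27.3 to 28.4) and 61.3% in control members (60.9 to 61.7). In female cells the shares were 30.1% and 63.2%, and in male cells 24.4% and 60.7%, so the libraries separated in the same way in each sex. The median cell had a single Hbb-bt UMI in the knockout against 9 in the control, and 6 Hbb-bs UMIs in both. Cells with more Hbb-bt than Hbb-bs UMIs were 16.9% of knockout and 59.8% of control members. Per 100 alpha-globin UMIs knockout members had 44.2 beta-globin UMIs and control members 84.5. Each transcript counts once by its 3′ end whatever its length. The last 300 bases of the Hbb-bt and Hbb-bs transcripts shared 85.8% of aligned positions, and how the authors' counting split reads between such close copies could not be checked here.

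Globin UMIs in granulocyte-monocyte cells, which should lack globin transcripts, give a level for free RNA in the droplets. Those cells held Hbb-bt at 13.8 CPM in the knockout and 53.1 in the control, and Hbb-bs at 48.5 and 39.3 CPM, below the members' levels for both genes. After thinning, Hbb-bt had a UMI in 60.5% of knockout and 94.0% of control members, against 28.6% of 311 and 70.9% of 609 granulocyte-monocyte cells, whose median depths before thinning were 29819 and 31677 UMIs. Without thinning the members' shares were 71.3% and 97.0%.

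Hbb-bt differed by a like amount in each bin of the middle tercile. When each tercile was cut into 5 bins of equal size, the middle bins gave Hbb-bt at 41.8, 55.0, 80.5, 169 and 211 CPM in the knockout and at 156, 217, 363, 629 and 980 CPM in the control. Hbb-bs in those bins went from 112 to 582 CPM in the knockout and from 96.9 to 621 CPM in the control. Both genes climbed with alpha globin in both libraries, and the Hbb-bt lines were apart. In the lowest of the 15 bins Hbb-bt was at 15.3 and 56.8 CPM, close to the granulocyte-monocyte level of each library, so the early bins are not read as expression. The log2 ratio of Hbb-bt was -2.02 in the later tercile, and -1.87 in female and -2.25 in male members. The embryonic globins Hbb-y, Hbb-bh1 and Hba-x were each below 1 CPM in both libraries.

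**Figure D2:**
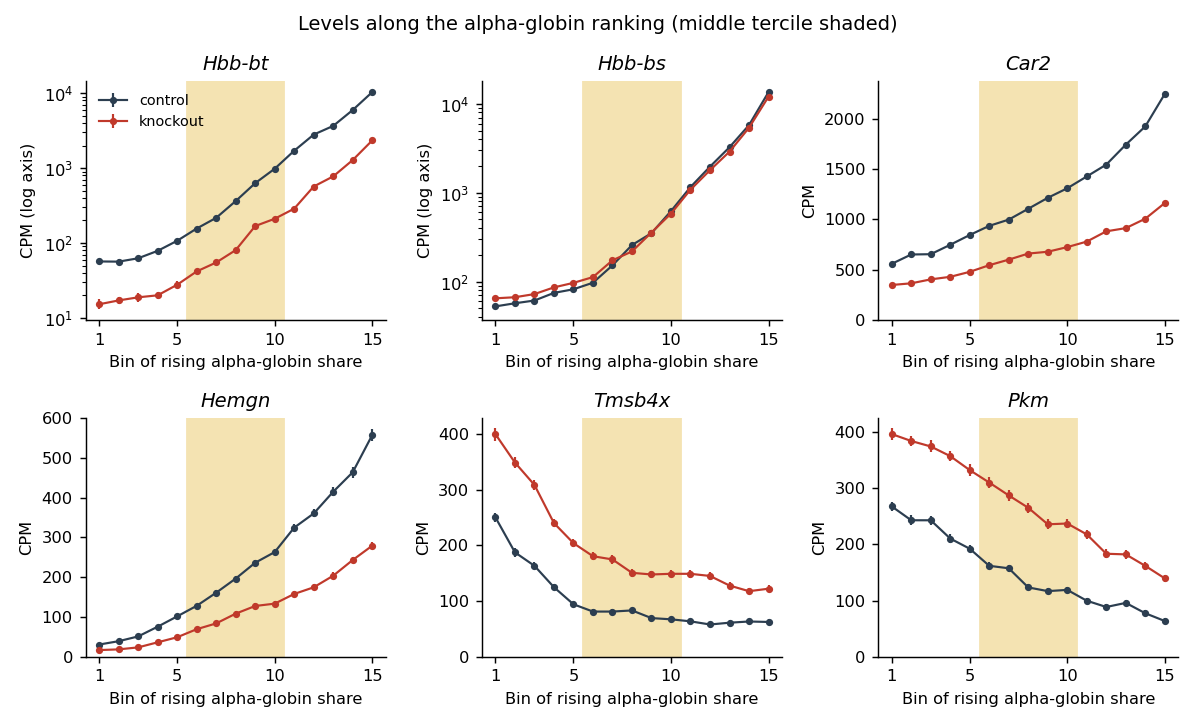
Levels of 6 genes (y, CPM, log axis for Hbb-bt and Hbb-bs) over 15 bins of rising alpha-globin share (x), 5 per tercile with the middle tercile shaded; points are summed UMIs per library with exact Poisson intervals, most of them smaller than the points. Hbb-bt, Car2 and Hemgn lie lower in the knockout in all bins and Tmsb4x and Pkm higher, while the Hbb-bs lines lie close together, at 112 against 96.9 CPM in the first middle bin.

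The promoters of both adult beta-globin genes and of Hemgn are shown from 250 bases before to 50 bases after the RefSeq start site, on GRCm38.p6 (the mm10 build), 5′ to 3′ on the gene's strand. They are Hbb-bt at chr7:103813874-103814173, Hbb-bs at chr7:103827879-103828178 and Hemgn at chr4:46404134-46404433, all on the minus strand. The globin copies are shown because they share a locus and differ in ratio, and Hemgn as an erythroid gene of another chromosome that was also lower. Each RefSeq start lies inside the gene's GENCODE span. For Hemgn it lies far inside, as the span runs upstream to 46413506, so the window shown is at an internal start. Capitals mark matches, on either strand, to 3 short motifs. AGATAA is a form of the site that GATA factors bind, and other forms are not marked. CACCC is the box that Klf1 and related factors bind. CCAAT is a box common in promoters.
Hbb-bt promoter: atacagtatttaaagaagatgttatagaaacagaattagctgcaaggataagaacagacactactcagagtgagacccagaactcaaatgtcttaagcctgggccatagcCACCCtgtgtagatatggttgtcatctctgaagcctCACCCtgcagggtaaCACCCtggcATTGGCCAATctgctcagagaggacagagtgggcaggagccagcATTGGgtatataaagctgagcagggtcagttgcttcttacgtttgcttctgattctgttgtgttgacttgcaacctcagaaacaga
Hbb-bs promoter: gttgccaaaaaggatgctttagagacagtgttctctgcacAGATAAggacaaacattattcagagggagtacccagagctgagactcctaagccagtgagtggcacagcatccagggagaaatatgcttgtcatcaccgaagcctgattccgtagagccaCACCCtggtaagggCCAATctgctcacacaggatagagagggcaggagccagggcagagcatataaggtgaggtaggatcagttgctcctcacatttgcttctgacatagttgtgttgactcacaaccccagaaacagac
Hemgn promoter: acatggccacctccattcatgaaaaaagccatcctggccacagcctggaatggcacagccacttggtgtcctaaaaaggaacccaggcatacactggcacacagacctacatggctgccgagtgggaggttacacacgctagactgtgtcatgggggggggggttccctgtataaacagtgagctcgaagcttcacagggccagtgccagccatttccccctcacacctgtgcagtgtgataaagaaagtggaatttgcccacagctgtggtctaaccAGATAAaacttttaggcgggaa
The Hbb-bt window held 3 CACCC matches, starting at -140, -104 and -89 from the start site, 3 CCAAT matches at -80, -75 and -36, and 0 AGATAA matches. The Hbb-bs window held 1 of each, AGATAA at -210, CACCC at -90 and CCAAT at -76. The Hemgn window held 1 AGATAA match, at 28 after the start site, and 0 of the others. The globin windows were identical in 71.3% of 307 aligned columns. Of 32851 RefSeq promoter windows of this length, 11.2% held AGATAA, 57.5% CACCC and 37.4% CCAAT, and the matches are a description of letters.

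Of 16 listed transcription factors of the erythroid program, all with at least 20 CPM, 0 were higher and 1 was lower, against 2.2% and 1.47% of all tested genes, and the median was -0.01 against 0.03. Nfia (ENSMUSG00000028565, chromosome 4), a nuclear factor I protein that favours the erythroid lineage in human progenitors, was the lower one, at 6.54 CPM (5.92 to 7.2) against 21.6 (20.6 to 22.6), a log2 ratio of -1.72. Its ratio was -1.17 in the early and -1.98 in the later tercile, and below -1.8 in both sexes (-1.93 and -1.85). Gata1, the master factor of the lineage, gave 0.08, Tal1 -0.16, Lmo2 -0.11, the Gata1 cofactor Zfpm1 0.13 and Foxo3 0.20. Klf1, which the gate used, gave -0.11.

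Hemgn (ENSMUSG00000028332, chromosome 4, 46393989 to 46413506, minus strand), a nuclear protein of blood progenitors and erythroid cells, stood at 104.5 CPM (102 to 107) in the knockout and 195 CPM (192 to 198) in the control, a log2 ratio of -0.90. It went from 69.4 to 134 CPM over the middle bins in the knockout and from 128 to 263 CPM in the control, so the knockout line stayed below throughout. Granulocyte-monocyte cells held 2.17 and 3.77 CPM of it. The ratio was -0.82 in female and -1.02 in male members.

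Among 25 genes of the red cell membrane and its skeleton, 23 had at least 20 CPM, with 1 higher, 3 lower and a median of -0.04, beside 2.2% higher and 1.47% lower of all tested genes. Aqp1, a water channel, was at 25.7 against 40.2 CPM (-0.65), and Add2, beta adducin, at 99.5 against 130 CPM (-0.39). Tmod1, which caps actin filaments of the skeleton, was the higher one at 38.2 against 28.9 CPM (0.40). Rhd and Ermap, blood group proteins, gave -0.22 and -0.25, short of the 0.3 used here.

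Genes of terminal maturation gave 2 higher and 2 lower of 12 measured, with a median of -0.02, beside 2.2% and 1.47% of all tested genes. Car2, carbonic anhydrase 2 (chromosome 3, 14886273 to 14900770, plus strand), stood at 642 CPM (636 to 649) in the knockout and 1108 CPM (1101 to 1115) in the control, a log2 ratio of -0.79. Its level climbed over the middle bins from 546 to 725 CPM in the knockout and from 937 to 1310 CPM in the control. Car1, a nearby carbonic anhydrase gene on the same chromosome, went the other way, at 32.0 against 24.5 CPM (0.38). Mkrn1, an E3 ubiquitin ligase, gave -0.36, and Xpo7, a nuclear export receptor, 0.37.

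No measured gene of the heme synthesis and iron handling lists was beyond 0.3, against 3.67% of all tested genes. Of 10 measured heme genes 9 were below 0, with a median of -0.07, and Urod, the fifth enzyme of the pathway, had the lowest ratio at 175 against 214 CPM (-0.29). The heme median stayed between -0.10 and -0.04 over all alternatives tried. Of 15 iron genes 9 were below 0, with a median of -0.03. The ferritin chains Ftl1 and Fth1 gave -0.24 and -0.16, and Tfrc -0.03. Slc40a1, the iron exporter, is outside these lists. It was lower in the knockout beyond 0.3 and is given under other observations.

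Receptors and signalling genes of erythropoietin and Kit gave 0 of 11 beyond 0.3, beside 3.67% of all tested genes, and a median of -0.02. Epor, the erythropoietin receptor, stood at 127 CPM (125 to 130) against 153 (150 to 155), a log2 ratio of -0.26. Kit gave 0.06 (-0.01 to 0.13) in the middle tercile, between -0.18 in the early and 0.33 in the later tercile. Lyn, a Src family kinase, gave 0.25 and Nr3c1, the glucocorticoid receptor, -0.16. Of 18 progenitor genes only 6 reached 20 CPM, and 0 were beyond 0.3, beside the same 3.67% of all tested genes. The progenitor median was 0.07, with Myc at 0.20, Lyl1 at 0.21 and Cdk6 at 0.04.

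Ifngr1, the ligand-binding chain of the interferon gamma receptor (chromosome 10), was at 24.1 CPM (22.9 to 25.3) against 49.1 (47.6 to 50.7), a log2 ratio of -1.03. It was the only one of 5 measured interferon genes beyond 0.3, beside 3.67% of all tested genes. Ifnar2, B2m, Bst2 and Ifitm2 lay between -0.15 and 0.13. The ratio of Ifngr1 was -1.19 in the early and -0.51 in the later tercile. It had a UMI in 46.2% of thinned knockout and 66.4% of thinned control members, and in 58.1% and 76.6% without thinning. Granulocyte-monocyte cells held 94.2 and 151 CPM of it, above the members, and the summed granulocyte-monocyte markers of the members were lower in the knockout too, as given above. Their part in the result was not tested.

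The remaining genes with the lowest ratios were a mixed group. Smim5, which encodes a small membrane protein (chromosome 11), was at 13.6 CPM against 40.8 (-1.59), and C2cd4a (chromosome 9) at 12.6 against 34.2 (-1.44). Slc26a1, a sulfate transporter (chromosome 5), was at 10.3 against 27.8 CPM (-1.43), and Sphk1, which makes sphingosine-1-phosphate (chromosome 11), at 21.9 against 50.6 (-1.21). App, the amyloid precursor protein (chromosome 16), was at 11.4 against 24.5 CPM (-1.11), and C1qtnf12 (chromosome 4), a secreted hormone-like protein, at 92.9 against 179 (-0.95). Each of these 6 genes was lower in all 3 terciles. The rule that named them asked for the same sign in both sexes. Their ratios by sex ran from -0.82 in female cells for C1qtnf12 to -2.06 in male cells for C2cd4a. Sh2d4a, an SH2 domain protein (chromosome 8), gave -0.83 (46.8 against 83.4 CPM).

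None of 6 measured BCL2 family genes was beyond 0.3 (median 0.06), nor any of 3 p53 targets (median 0.00). The same held for 7 genes of the integrated stress response (median 0.03). The share over all tested genes was 3.67%.

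**Figure D3:**
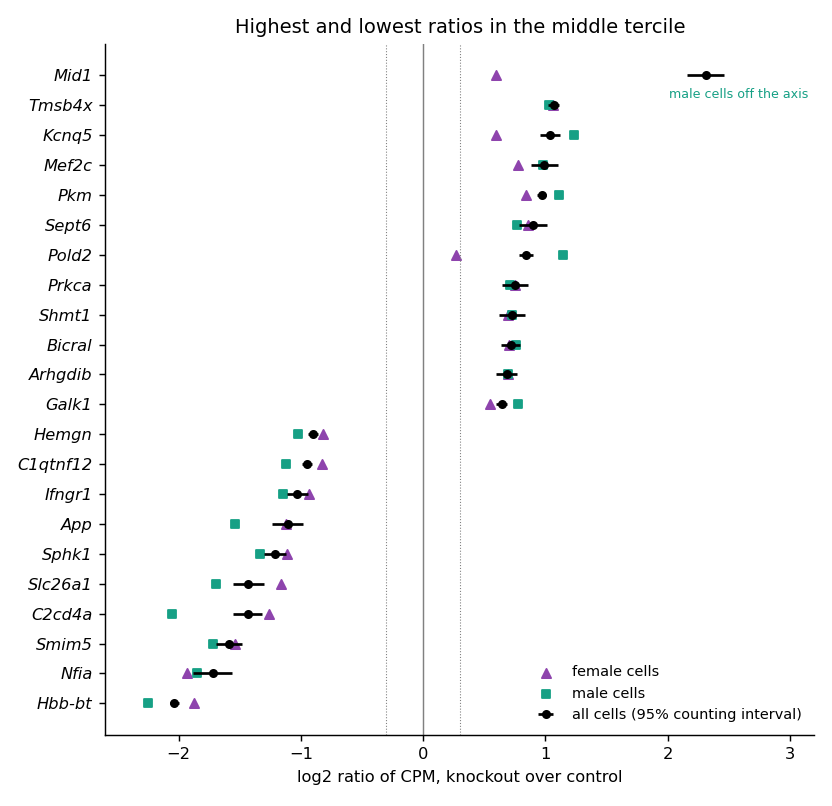
Log2 ratios of CPM, knockout over control (x), of the 12 highest and 10 of the 12 lowest genes named by rule in the middle tercile (y); black points with 95% counting intervals are all cells, triangles female and squares male cells, and dotted lines mark 0.3 either way. The lower genes run from -0.90 for Hemgn to -2.03 for Hbb-bt. Both sexes lie on the same side because the rule asked for it. Mid1 at 2.31 has 0.59 in female cells and its male value, 8.32, lies off the axis.

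The non-canonical BAF subunits besides Brd9 were both higher. Bicral (chromosome 17) stood at 46.5 CPM (44.8 to 48.2) in the knockout and 28.3 CPM (27.2 to 29.5) in the control, a log2 ratio of 0.71, with 0.70 in female and 0.76 in male members. Bicra (chromosome 7) was at 30.3 against 21.5 CPM (0.49), and gave 0.18 in the early and 0.38 in the later tercile. Bicral and Bicra are alternative scaffold subunits that only this form of the complex contains. Of 19 measured subunits of the other BAF complexes 0 were beyond 0.3, beside 3.67% of all tested genes. The median of these 19 was 0.04, with Bcl7a at 0.19, Smarca4 at 0.05 and Phf10 at -0.09. CTCF and the cohesin genes, which shape chromatin loops, gave 0 of 10 beyond 0.3, beside the same 3.67%, and a median of 0.03.

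Thymosin beta 4, the actin-binding peptide, was higher. Its gene Tmsb4x (X chromosome), whose product sequesters actin monomers, was at 161 CPM (158 to 164) against 76.7 (74.8 to 78.7), 2.09-fold higher (2.03 to 2.16), with a log2 ratio of 1.07. The ratio was 1.07 in female and 1.03 in male cells, and control female and male cells differed by 0.05, so the sexes gave the same picture for this X-linked gene. Of 7 measured actin and thymosin genes, 3 were higher, Tmsb4x, Arpc1b of the Arp2/3 complex (0.45) and Tmsb10 (0.31), beside 2.2% of all tested genes, and the median was 0.07. Actb gave 0.07 and Cfl1, cofilin, -0.03.

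Granulocyte-monocyte cells held 5789 and 4950 CPM of Tmsb4x and 733 and 703 of Arpc1b, far above the members. They also held more of Mef2c, a transcription factor of the myeloid and lymphoid lineages (275 and 297 CPM), and of Arhgdib, an inhibitor of small GTPases in blood cells (1044 and 984 CPM). In the members Mef2c (chromosome 13) was at 28.1 against 14.1 CPM (0.99) and Arhgdib (chromosome 6) at 39.7 against 24.7 (0.68). The members' summed granulocyte-monocyte and neutrophil markers were lower in the knockout, at 12.5 against 22.9 and 6.25 against 10.3 CPM. The gate itself limits Mpo, Prtn3, S100a8 and S100a9 of those lists. The summed megakaryocyte and stem cell markers were higher, at 8.98 against 6.55 and 3.98 against 2.57 CPM. The gate also limits Pf4 of the megakaryocyte list and Med12l and Prkg1 of the stem cell list. The part of all these markers in the result was not tested.

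Glycolytic genes were the list with the most members beyond 0.3, at 4 higher and 1 lower of 12 measured, beside 2.2% and 1.47% of all tested genes. Of the 12, 11 were above 0, and their median was 0.13, between 0.09 and 0.21 over all alternatives tried. Pkm, pyruvate kinase (chromosome 9), was at 267 CPM (263 to 271) against 136 (134 to 139), a log2 ratio of 0.97. Over the middle bins it went from 310 to 237 CPM in the knockout and from 162 to 119 CPM in the control, so it declined in both and stayed higher in the knockout. Granulocyte-monocyte cells held 539 and 502 CPM of it. Aldoa, aldolase, was at 495 against 371 CPM (0.42), Eno1, enolase, at 204 against 150 (0.45) and Pgk1, phosphoglycerate kinase, at 219 against 176 (0.31, and 0.24 in female cells). Pgam1 gave 0.30, just inside the limit. Pfkm, a phosphofructokinase, was lower at 29.3 against 37.8 CPM (-0.37).

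Of 7 measured cholesterol synthesis genes 0 were beyond 0.3, beside 3.67% of all tested genes. All 7 were above 0, before centring on the median of 0.03 over all genes. Their median was 0.21, but this was 0.28 within female and 0.01 within male cells. Srebf2, the transcription factor of the pathway, gave 0.33 in female and 0.25 in male cells. The difference between the sexes was not tested.

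Of 26 S phase genes 1 was higher and 0 lower with a median of -0.02, beside 2.2% and 1.47% of all tested genes. Of 22 genes of G2 and mitosis 0 were beyond 0.3 with a median of -0.02, beside 3.67% of all tested genes. Of 6 measured genes of the G1 list, which includes the kinases Cdk2 and Cdk4 and Rb1, 0 were beyond 0.3, beside the same 3.67%. Their median was 0.06, with Ccnd3 at 0.25. The higher S phase gene was Pold2, a subunit of DNA polymerase delta (chromosome 11), at 88.9 against 49.7 CPM (0.84). Its control level was 72.9 CPM in female and 40.5 CPM in male cells, whereas knockout cells held 87.9 and 89.7 CPM. The ratio was therefore 0.27 in female and 1.15 in male members, and control female cells stood 0.85 above control male cells on the log2 scale.

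**Figure D4:**
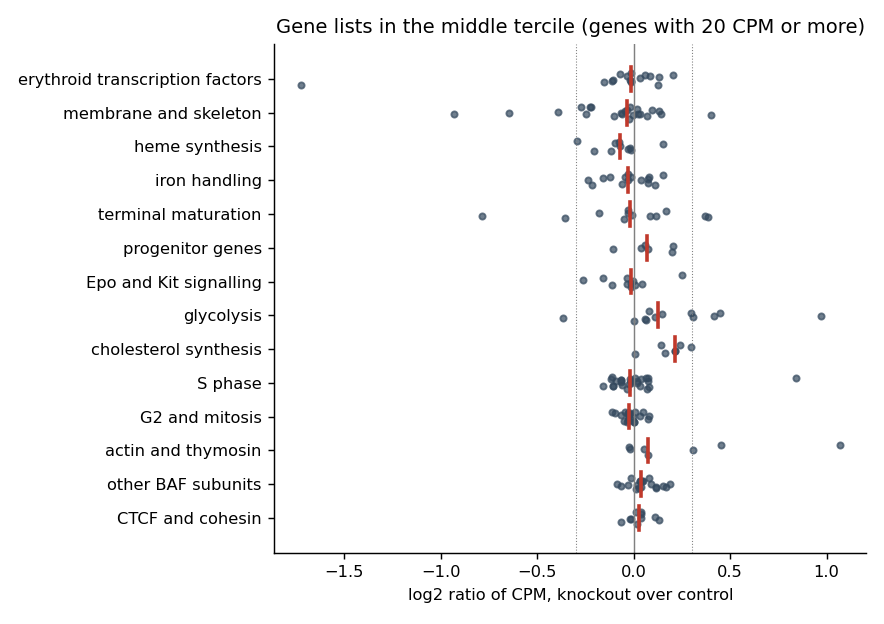
Log2 ratios of CPM, knockout over control (x), in the middle tercile for genes with at least 20 CPM of 14 lists (y); each point is a gene, red bars are list medians and dotted lines mark 0.3 either way. Most points lie within 0.3 of 0, and the list medians run from -0.07 for heme synthesis to 0.21 for cholesterol synthesis, with Nfia and Car2 far to the left and Tmsb4x, Pkm and Pold2 far to the right.

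Other genes with the highest ratios also divided by their behaviour in the sexes. Mid1, a ubiquitin ligase gene (X chromosome, 169685199 to 170005736), had 27.6 CPM against 5.58 (2.31). Its female cells held 29.7 CPM in the knockout and 19.7 in the control (0.59), but male cells held 22.8 CPM (434 UMIs) against 0.0713 CPM (4 UMIs), a log2 ratio of 8.32 (6.96 to 10.2). Mid1 was thus nearly absent from the control male cells alone. Kcnq5, a potassium channel gene (chromosome 1), was at 52.9 against 25.8 CPM (1.04), with 0.60 in female and 1.23 in male cells and with control female cells 0.59 above control male cells on the log2 scale.

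Sept6, a septin (X chromosome), gave 0.90, Prkca, protein kinase C alpha (chromosome 11), 0.75, Shmt1, the cytosolic serine hydroxymethyltransferase (chromosome 11), 0.72 and Galk1, galactokinase (chromosome 11), 0.64. Their ratios were above 0.5 in both sexes, from 0.54 for Galk1 in female to 0.77 for Galk1 in male cells among the autosomal ones. In levels, Sept6 was at 24.5 against 13.1 CPM, Prkca at 25.8 against 15.3, Shmt1 at 26.1 against 15.8 and Galk1 at 128 against 82.0.

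**Figure D5:**
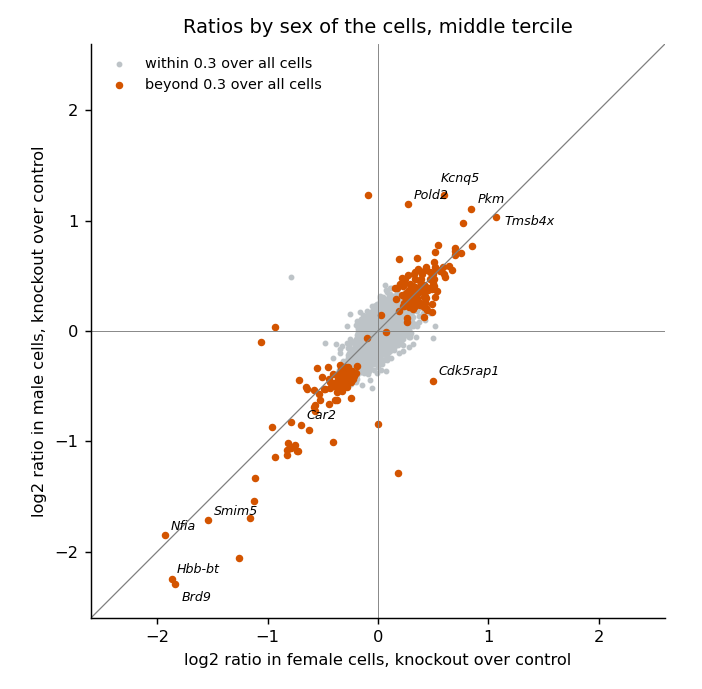
Log2 ratio of CPM, knockout over control, in female (x) and male (y) members for 6052 of the tested genes; orange points are beyond 0.3 over all cells, the diagonal marks equal ratios, and 2 genes including Mid1 lie outside the range. Most of the genes far from 0, such as Hbb-bt, Nfia, Smim5, Tmsb4x and Pkm, lie near the diagonal, while Pold2 and Cdk5rap1 lie away from it.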

How the data were processed

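Single cells of 1 knockout and 1 control library were measured by 10x Genomics 3′ sequencing, per the labels' protocols. Cell Ranger 7.2.0 and mm10 are named in the submitters' processing notes. The deposited matrices hold whole-number UMI counts per gene and barcode, with no normalization by the authors. The sources used here do not say if intronic reads were included. Both libraries list 32285 genes, of whose identifiers 32235 were in GENCODE M21, which gave coordinates. Where a symbol named several identifiers, the one with most UMIs was used.

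UMIs were summed over the middle-tercile cells of each library and scaled to a total of 1e+06 (CPM). The log2 ratio has a conditional exact interval, sums exact Poisson and shares Clopper-Pearson intervals at 95%, and the ratio of shares a log-normal interval. This ratio step was run on simulated counts that held counting error alone. That run checks the computation and cannot show how cells, embryos or libraries vary. Genes that reached 20 CPM in 1 of the libraries were compared, and beyond 0.3 on the log2 scale was counted. With 1 library per genotype there was no test. A cell was called female from 3 or more Xist UMIs with no more than 1 UMI over 4 Y-linked genes, and male from 1 Xist UMI or fewer. Doublets were kept as the rule gives them, and Scrublet in scanpy 1.11.5 with an expected rate of 6% marked 244 knockout cells (3.485% of those past the filters) and 240 control cells (3.38%), used as an alternative. Promoters came from RefSeq, aligned with biopython 1.88.

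The text names the 12 highest and 12 lowest ratios with the same sign in both sexes, without Brd9, the genes of the gate, predicted genes, ribosomal protein and mitochondrial genes, Y-linked genes, Xist and Tsix. Besides these it draws on up to 6 members by ratio of each of 21 lists, and on Brd9, BAF subunits, globins and genes an earlier account of these data named. Ahsp was not analysed here, and a few genes under this rule are not reported here. Members, lists and markers were chosen with earlier results of these data known. Alternatives covered sex, doublets, scaling, minimum level, cuts of the terciles, filters and depth.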

Additional observations from a re-analysis of the deposited data

Results flagged for a closer look

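Cdk5rap1, which encodes an enzyme that modifies transfer RNA (chromosome 2), moved in opposite directions in the sexes, with a log2 ratio of 0.50 (0.35 to 0.64) in female and -0.45 (-0.65 to -0.26) in male members. Its levels were 37.3 CPM in knockout and 26.4 CPM in control female cells, and 14.2 and 19.4 CPM in male cells. Within the knockout library female cells held more than male cells by 1.40 on the log2 scale, and within the control by 0.45. Sex and embryo cannot be told apart here, and with 1 library per genotype the difference between the sexes was not tested.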

How the results depend on the processing

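With genes of at least 50 CPM, 35 were higher and 45 lower, with at least 5 CPM 471 and 198, and beyond 0.5 on the log2 scale 30 and 35. In male cells alone 171 genes were lower. Centring on the median gave 91 higher and 124 lower. The Brd9 log2 ratio was -2.30 in male cells and -2.16 with sexes weighted to the control, a setting chosen after seeing the data. The ratio of middle-tercile shares was 0.765 in male cells, and 0.99999 with terciles cut within each library, by construction. The rule for the highest and lowest genes had already asked for the same sign in female and male cells. Of 683 values of the 43 named genes beyond 0.3, over all alternatives, 667 were beyond 0.3 in the same direction and 3 had the opposite sign. These were Hbb-bh1 in thinned cells (0.0097, from 32 and 52 UMIs) and Cdk5rap1 in male cells (-0.45) and with sexes weighted to the control (-0.0623). Tmsb10 fell short of 0.3 in 5 settings and Pgk1 in 3. For all of these the cause was not tested, except where fewer genes were counted.

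Genotype, library and embryo cannot be told apart, nor can sex and embryo within a library. Intervals cover counting error only. No paired analysis was possible because each genotype has 1 library.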

Other observations

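Some genes outside the rule for named genes also differed in the middle tercile. They were picked after their values were seen. Sox6, a transcription factor that in mice restrains embryonic beta-like globin, had 55.3 CPM against 81.3 CPM (knockout first, as below), a log2 ratio of -0.56 (-0.62 to -0.50), with -0.65 in female and -0.51 in male cells. Bcl11a, known for the same role, was at 379 and 383 CPM (-0.01). Kcnn4, a calcium-activated potassium channel of red cells, was at 137 against 189 CPM (-0.47), and Slc40a1, the iron exporter ferroportin, at 32.2 against 43.7 CPM (-0.44). H2-K1, a class I histocompatibility gene, was at 44.4 against 30.6 CPM (0.54), with 0.53 in female and 0.56 in male cells.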
